A study of Homo sapiens with 18 samples.

Results

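Cadmium and zinc were compared directly in wild-type HEK293A cells, across all measured genes. HEK293A is an adherent subclone of HEK293, a human embryonic kidney line transformed with adenovirus DNA. The comparison uses the 3 wild-type libraries from cells given 50 uM CdCl2 and the 3 from cells given 250 uM ZnCl2, chosen by their titles, which are 6 of the 18 RNA-seq libraries of the series. Treatment lasted 4 h in every group. The other wild-type group, 3 libraries from cells given water, shows where each level stood without added metal. The remaining 9 libraries come from HEK293A cells labelled as lacking both LATS1 and LATS2, the kinases of the Hippo pathway, after the same 3 treatments, and were used to see whether the contrast recurred in another genotype. Each metal was used at 1 dose, and the doses differ, so metal and dose cannot be told apart. The labels describe the replicates as biological but do not say whether each was a culture of its own or was run on its own day. The p-values therefore describe only the variation among these libraries. The labels do not say whether the knockout was more than 1 clone, so genotype and clone cannot be told apart.

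Per library, 30928610 to 34255778 reads were counted in genes in the Cd group, 29879363 to 31175036 in the Zn group and 25478614 to 34411038 in the water group. Levels are given in CPM, counts scaled to a common library total after that total was adjusted by a TMM scaling factor. They are relative levels, and fewer cells cannot be told from less RNA per cell. Without that factor, a gene at 5 CPM had 149 counts in the smallest of the 6 libraries. Replicates differed by more than sampling noise in every pair. The third Zn library stood apart: its counts differed from those of the other Zn libraries with a chi-square of 4.96 and 5.04 per degree of freedom, against 1.88 between those other two and 2.27 to 3.07 among the Cd libraries. Values without it are given for some of the genes in which it stood apart, not for all. Markers of the line were present in both groups, with VIM at 473 ± 28.99 CPM in Cd and 429 ± 26.9 CPM in Zn libraries and LIN28B at 146 ± 7.18 and 155 ± 5.17 CPM (SD, n = 3 each), while the kidney and neuronal markers PAX2 and NEFM, also on that list, were near 0, with means of 0.150 and 0.108 CPM in Cd and 0.146 and 0.0341 CPM in Zn libraries. Only 4 of 8 fibroblast markers had enough counts to be tested. These summed to 8.55 to 10.97 CPM in Cd, 10.09 to 12.57 CPM in Zn and 10.90 to 12.71 CPM in water libraries. The 1 keratinocyte marker tested, of 8, stood at 20.45 to 21.68 CPM in Cd, 22.16 to 25.54 CPM in Zn and 19.51 to 22.40 CPM in water libraries. The 2 blood cell markers tested, of 8, summed to 2.90 to 3.08 CPM in Cd, 3.73 to 4.26 CPM in Zn and 2.26 to 2.38 CPM in water libraries. Their part in the results was not tested.

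Zinc is an essential metal and cadmium a toxic one that binds many of the same thiol sites. In human cells free zinc activates the transcription factor MTF1, which binds metal response elements and turns on metallothioneins, small cysteine-rich proteins that hold zinc and cadmium, and the zinc exporter SLC30A1. Both metals also bind protein thiols, and the resulting stress is sensed by HSF1 (heat shock genes), NRF2 (antioxidant genes) and the kinases that lead to ATF4 (the integrated stress response). The Hippo kinases LATS1 and LATS2 restrain YAP and TAZ, coactivators that act with TEAD factors on genes such as CCN1, CCN2 and ANKRD1.

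Promoters of 5 genes are printed here as examples. MT1X was modestly lower in cadmium, and SLC30A1 was close in both metals. SLC30A2 was far lower in cadmium, and HSPA6 and ANKRD1 were far higher. Each promoter is the 250 bases before the first listed gene start in RefSeq on GRCh38.p14, read 5′ to 3′ on the gene's strand. Capitals mark matches on either strand to a metal response element (TGCACNC or TGCGCNC) in the first 3, to a heat shock element of 3 alternating units (the triplets GAA, TTC and GAA with NN between neighbours, or their reverse complement) in HSPA6, and to the TEAD motif CATTCC in ANKRD1.
MT1X (chr16:56682220-56682469, plus strand): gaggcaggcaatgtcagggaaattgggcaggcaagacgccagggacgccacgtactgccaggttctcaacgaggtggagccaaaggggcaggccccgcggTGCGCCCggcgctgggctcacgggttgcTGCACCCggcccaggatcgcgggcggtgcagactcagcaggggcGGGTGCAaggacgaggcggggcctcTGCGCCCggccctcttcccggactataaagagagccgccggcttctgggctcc
SLC30A1 (chr1:211579162-211579411, minus strand): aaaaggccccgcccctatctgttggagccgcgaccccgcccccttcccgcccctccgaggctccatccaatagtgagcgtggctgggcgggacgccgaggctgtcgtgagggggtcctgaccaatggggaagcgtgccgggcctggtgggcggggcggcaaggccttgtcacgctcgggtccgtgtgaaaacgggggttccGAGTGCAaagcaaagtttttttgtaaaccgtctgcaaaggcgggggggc
SLC30A2 (chr1:26046119-26046368, minus strand): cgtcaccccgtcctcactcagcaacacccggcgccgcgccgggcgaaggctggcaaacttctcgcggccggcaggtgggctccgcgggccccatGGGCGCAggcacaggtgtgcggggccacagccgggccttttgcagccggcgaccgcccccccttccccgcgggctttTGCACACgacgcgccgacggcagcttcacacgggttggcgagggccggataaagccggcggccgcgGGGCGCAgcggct
HSPA6 (chr1:161524290-161524539, plus strand): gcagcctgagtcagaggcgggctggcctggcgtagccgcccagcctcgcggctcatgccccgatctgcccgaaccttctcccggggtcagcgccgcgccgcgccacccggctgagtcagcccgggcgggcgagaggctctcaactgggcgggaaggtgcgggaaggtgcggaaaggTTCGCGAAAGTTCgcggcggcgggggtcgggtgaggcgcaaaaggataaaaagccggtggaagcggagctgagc
ANKRD1 (chr10:90921088-90921337, minus strand): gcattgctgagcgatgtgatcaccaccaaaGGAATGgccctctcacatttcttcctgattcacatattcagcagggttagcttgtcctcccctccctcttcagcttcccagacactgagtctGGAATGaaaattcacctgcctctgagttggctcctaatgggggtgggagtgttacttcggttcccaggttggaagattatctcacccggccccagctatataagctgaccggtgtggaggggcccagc
The windows held 4 matches in MT1X, 1 in SLC30A1, 3 in SLC30A2, 1 in HSPA6 and 2 in ANKRD1. In MT1X the matches nearest the start lay 53 to 47 and 78 to 72 bases upstream, and in HSPA6 the match lay 74 to 62 bases upstream. A metal response element was common: it was found in 34.8% of the 8994 windows available for genes of at least 5 CPM, in 31.3% of the 134 windows of genes at least 2-fold higher in cadmium and in 36.6% of the 93 windows of genes at least 2-fold lower. The heat shock element was rare, at 0.300% of all windows, 1 of the 134 windows of genes higher in cadmium and 0 of the 93 of those lower. The TEAD motif was found in 9.03% of all windows, 14.2% of the windows of genes higher in cadmium and 12.9% of those lower. These matches are descriptions of the sequence and show no binding.

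After 4 h the transcriptomes under the 2 metals differed widely but mostly by small steps. Among the genes higher in cadmium, the heat shock gene HSPA6 was 4.18-fold higher in Cd than in Zn libraries, the TGF-β and BMP feedback gene SMAD7 6.38-fold, the BMP-responsive ID3 6.82-fold and the phosphatase gene DUSP1 5.61-fold. Among the genes lower in cadmium, the vesicular zinc transporter SLC30A2 was 5.04-fold lower in Cd libraries and the stem cell factor SOX2 3.17-fold lower. Of the classic metal genes, SLC30A1 was close in both, while MT1X and MT2A were modestly lower in cadmium (log2 fold changes -0.27 and -0.38).

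Of 19393 genes tested with edgeR's quasi-likelihood test, 10147 passed an adjusted p (Benjamini-Hochberg) of 0.05, which is 52.3% of those tested. The 5293 genes higher in cadmium were 27.3% and the 4854 lower were 25.0%. Of the genes that passed, 6667 (65.7%) differed by less than 1.5-fold, and the median log2 fold change over all tested genes was 0.003. At least 2-fold higher were 836 genes (4.31%), and at least 2-fold lower were 744 (3.84%). Among the 11132 genes with a mean of at least 5 CPM, 188 were at least 2-fold higher and 120 at least 2-fold lower. With library size alone as the scaling, the median was -0.051, 4420 genes were called as higher and 5947 as lower, and the higher genes were 42.6% of those called in place of 52.2%. Values of the Cd and Zn libraries did not overlap for 10947 genes (56.4%).

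**Figure D1:**
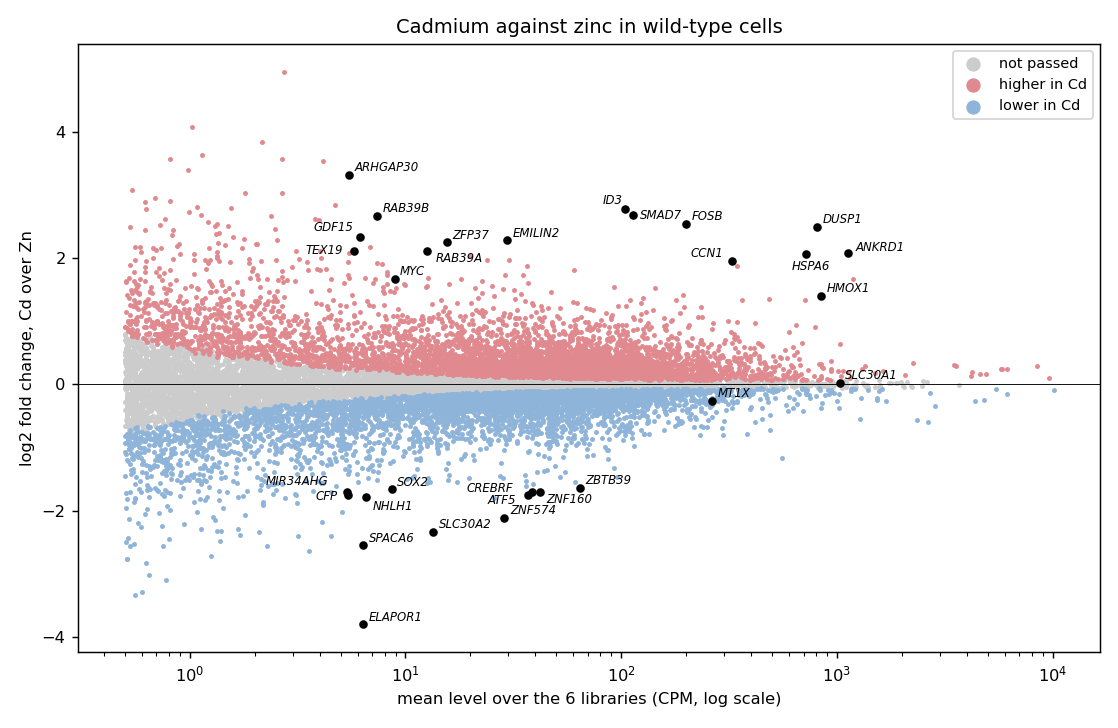
Each point is 1 of the tested genes with a mean of at least 0.5 CPM: the x axis is its mean over the 6 Cd and Zn libraries (CPM, log scale) and the y axis its log2 fold change of Cd over Zn. Genes that passed adjusted p 0.05 are coloured by direction and named genes are black; most lie within 1 log2 unit of 0, MT1X and SLC30A1 lie near 0, and HSPA6, ANKRD1 and DUSP1 stand near 2 at high levels.

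Where the water level lay was read for the genes of at least 5 CPM that differed at least 2-fold. Of the 188 higher in cadmium, the water mean lay below both metals for 71, between them for 91 and above both for 26. Of the 120 lower in cadmium, the water mean lay below both for 36, between for 72 and above both for 12. HSPA6, HMOX1 and FOSB belong to the first kind, with water below both metals. MYC belongs to the third kind, since its water libraries were higher than those of either metal.

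Of the metallothioneins, MT2A, MT1X and MT1F were lower in cadmium, and the first 2 were abundant under both metals. MT2A stood at 763, 691 and 732 CPM in the Cd libraries, against 1026, 980.0 and 844 CPM in the Zn libraries, with 17.1, 22.9 and 20.2 CPM in water. Its log2 fold change was -0.38 ± 0.05 (SE; edgeR adjusted p = 1.71e-08), and every Cd library was below every Zn library. MT1X stood at 245, 238 and 237 CPM in Cd, against 296, 304 and 265 CPM in Zn, with 2.53, 3.20 and 3.88 CPM in water, a log2 fold change of -0.27 ± 0.04 (adjusted p = 2.01e-07). MT1F was lower too, at 6.09 ± 0.453 CPM in Cd and 8.69 ± 1.58 CPM in Zn libraries (log2 fold change -0.51). These 3 genes, with MT1B, were the members that passed among 6 tested of 11. MT1B, higher in cadmium, rested on 23 counts in Cd and 8 in Zn libraries, and its call was lost in 7 of the 13 alternative analyses that could test it. MT1G (16 counts in Cd and 27 in Zn libraries) and MT1H (2 and 4 counts) did not pass, and MT1E, MT1A, MT1M, MT3 and MT4 had at most 3 counts summed over either group. The MT1 genes are near copies, and how reads matching several of them were counted is not given, so their separate levels are uncertain.

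SLC30A1, which exports zinc across the plasma membrane, stood at 1016, 1053 and 1051 CPM in Cd, against 1012, 1076 and 982 CPM in Zn, with 60.7, 54.4 and 56.0 CPM in water. The libraries of the 2 metals overlapped, and the log2 fold change was 0.02 ± 0.03 (adjusted p = 0.56). SLC30A2, which moves zinc into vesicles, stood at 4.20, 4.95 and 4.22 CPM in Cd, against 23.9, 25.2 and 18.3 CPM in Zn, with 0, 0.726 and 0.113 CPM in water. Its log2 fold change of -2.33 ± 0.12 (adjusted p = 2.29e-19) was the third lowest among the genes eligible for naming. Across the family, 1 of 10 tested SLC30 genes was higher in cadmium (10%) and 2 were lower (20%), the other being SLC30A10, a manganese exporter singled out after its values were seen, at 1.55 CPM in Cd and 2.68 CPM in Zn. The 1 higher, SLC30A7, had a log2 fold change of 0.14, and this call was lost with library size scaling and without the third Cd or the second Zn library. Among 12 tested SLC39 zinc importers 4 were higher (33.3%) and 2 lower (16.7%), against 27.3% and 25.0% of all genes tested. SLC39A3 stood at 24.1, 25.01 and 25.1 CPM in Cd, against 12.5, 11.8 and 12.3 CPM in Zn, with 25.7, 23.3 and 24.6 CPM in water, so the Cd level was at the water level and the Zn level below it. SLC39A10, at 54.5 CPM in Cd and 38.6 CPM in Zn libraries, had a water mean of 74.3 CPM. SLC39A13 and SLC39A6 were lower (log2 fold changes -0.24 and -0.09), but the first call was lost without the second Cd library, and the other without any 1 of the libraries except the second Cd one. MTF1 itself was lower in cadmium, at 53.1, 50.6 and 50.6 CPM against 70.8, 71.9 and 64.2 CPM in Zn and 37.3, 34.5 and 36.7 CPM in water (log2 fold change -0.42 ± 0.05, adjusted p = 3.38e-10).

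**Figure D2:**
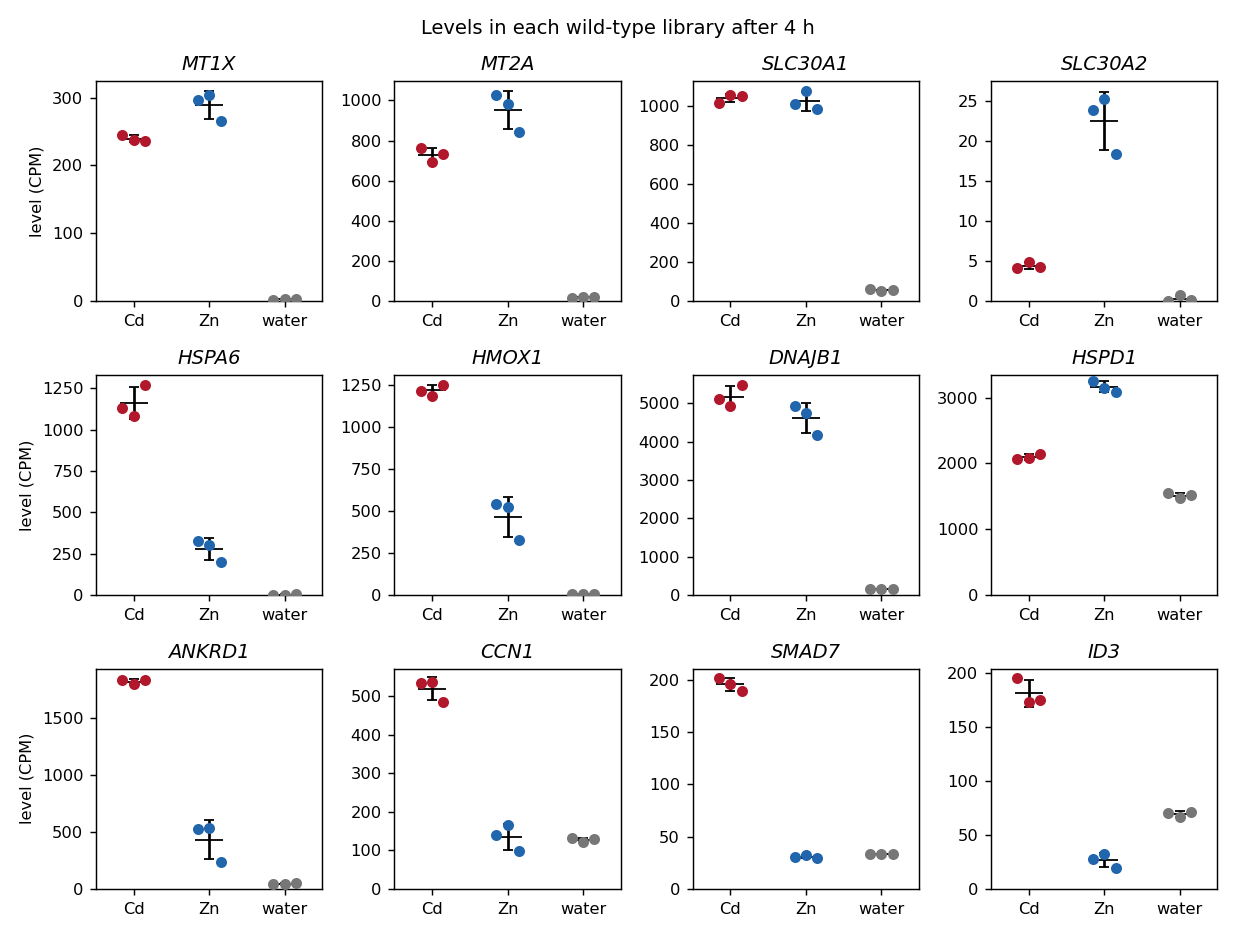
Levels of 12 genes in every wild-type library (CPM, linear axis from 0; points are libraries, bars the mean with its SD, n = 3 per group) under Cd, Zn and water. SLC30A1 stands at a similar level in both metals, and MT1X and MT2A are modestly lower in Cd. HSPA6, HMOX1 and ANKRD1 are higher in Cd with an intermediate Zn level. SLC30A2 and HSPD1 are higher in Zn, and CCN1 and SMAD7 are far higher in Cd than in Zn or water.

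Of 28 heat shock genes tested, 10 were higher in cadmium and 13 lower, 35.7% and 46.4% of the list against 27.3% and 25.0% of all genes tested, with a median log2 fold change of -0.07. Summed over the list, Cd libraries held 39863 to 41959 CPM and Zn libraries 40324 to 45231 CPM, against 14664 to 15359 CPM in water. HSPA6, an HSP70 gene that is silent without stress, stood at 1131, 1083 and 1269 CPM in Cd, against 329, 303 and 202 CPM in Zn, with 1.42, 2.28 and 3.88 CPM in water. Its log2 fold change was 2.06 ± 0.09 (adjusted p = 3.45e-21) and 1.88 without the third Zn library, which was the lowest of the Zn group. HSPA6 has a near copy, HSPA7, and how reads matching both were counted is not given. CRYAB, a small heat shock protein singled out after its values were seen, was higher still in relative terms, at 4.13, 4.07 and 3.88 CPM in Cd, against 0.440, 0.205 and 0.195 CPM in Zn.

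DNAJB1, an HSP40 cochaperone, stood at 5098, 4931 and 5473 CPM in Cd, against 4928, 4739 and 4168 CPM in Zn, with 169, 171 and 169 CPM in water. Its log2 fold change of 0.16 (adjusted p = 3.18e-04) was 0.10 without the third Zn library. BAG3, the HSP70 partner in chaperone-assisted autophagy, was higher (log2 fold change 0.41 ± 0.04), at 756 ± 59.6 CPM in Cd and 571 ± 37.01 CPM in Zn (SD, n = 3 each). HSPA1B, at 4859.8 CPM in Cd and 4350.0 CPM in Zn, was higher (log2 fold change 0.16), which was 0.10 without the third Zn library and no longer passed with DESeq2. Its near-identical neighbour HSPA1A had 13.5 CPM in Cd and 15.3 CPM in Zn libraries and did not pass (log2 fold change -0.17, adjusted p = 0.0813), and reads of these 2 genes cannot be told apart reliably. Among the lower members, the mitochondrial chaperonin gene HSPD1 stood at 2066, 2078 and 2143 CPM in Cd, against 3257, 3153 and 3091 CPM in Zn, with 1549, 1469 and 1514 CPM in water (log2 fold change -0.60 ± 0.02, adjusted p = 9.62e-22). DNAJB4, the HSP110 gene HSPH1, HSP90AB1 and HSPA8 were lower too (log2 fold changes -0.72, -0.35, -0.26 and -0.25). HSPH1, HSP90AB1, HSPA8 and HSPA1B were singled out after their values were seen.

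Of 14 adaptors of ubiquitin and proteotoxic stress, 5 were higher (35.7%) and 7 lower (50.0%): ZFAND2A, an arsenite-inducible proteasome adaptor, stood at 150.1, 148 and 179 CPM in Cd, against 102, 91.8 and 94.4 CPM in Zn (log2 fold change 0.73), and the autophagy receptor SQSTM1 stood at 326, 331 and 334 CPM in Cd, against 508, 515 and 484 CPM in Zn (log2 fold change -0.60). UBQLN2, which shuttles ubiquitinated proteins to the proteasome, was higher (log2 fold change 0.54). Among 31 proteasome subunits 15 were higher (48.4%) and 5 lower (16.1%), with a median log2 fold change of 0.07, from 0.64 for PSMA2 and 0.40 for PSMD12 to -0.26 for PSMA1. The shares of all genes tested were 27.3% higher and 25.0% lower.

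Of 27 tested NRF2 targets, 7 were higher in cadmium (25.9%) and 9 lower (33.3%), with a median log2 fold change of -0.03. The share of higher members lay near the 27.3% of all genes tested, and 25.0% of all genes were lower. HMOX1, which degrades heme, stood at 1219, 1189 and 1250.3 CPM in Cd, against 541, 524 and 326 CPM in Zn, with 6.79, 7.79 and 8.08 CPM in water. HMOX1 had a log2 fold change of 1.39 ± 0.08 (adjusted p = 3.11e-17), and 1.20 without the third Zn library, which held the lowest value. TXNRD1, thioredoxin reductase, stood at 959.8, 1046 and 1105 CPM in Cd, against 554, 599.9 and 499.9 CPM in Zn, with 321, 316 and 329.9 CPM in water (log2 fold change 0.91), and the groups did not overlap. The 2 subunits of the enzyme that limits glutathione synthesis parted: the catalytic GCLC was higher (log2 fold change 0.58 ± 0.04, adjusted p = 3.68e-16), while the modifier GCLM had 259 ± 17.7 CPM in Cd and 242 ± 16.9 CPM in Zn libraries and did not pass (log2 fold change 0.10 ± 0.04, adjusted p = 0.0642). The cystine importer SLC7A11 was lower in cadmium, at 143, 164 and 166 CPM against 193, 203 and 179 CPM in Zn and 20.95, 20.7 and 22.5 CPM in water (log2 fold change -0.28), and UGDH and EPHX1 were lower (log2 fold changes -0.64 and -0.43). SRXN1 had 1.998 ± 0.476 CPM in Cd and 1.37 ± 0.629 CPM in Zn libraries and did not pass (adjusted p = 0.0551). In the glutathione and thioredoxin list 9 of 28 were higher (32.1%) and 3 lower (10.7%), or 7 and 7 with library size alone as the scaling. Of 16 genes of heme and iron handling 6 were higher (37.5%) and 5 lower (31.2%). FECH, which inserts iron into heme, was higher (log2 fold change 0.49), while the ferritin subunit genes FTL and FTH1 were lower (log2 fold changes -0.25 and -0.22). The iron exporter gene SLC40A1, singled out after its values were seen, stood at 0.940, 0.478 and 1.55 CPM in Cd, against 5.96, 5.74 and 4.36 CPM in Zn libraries. Its water mean, 8.45 CPM, was above both metals.

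Of the genes linked to ATF4 more were higher than lower in cadmium, while of those of the unfolded protein response, which answers stress in the endoplasmic reticulum, most were lower. Of 30 ATF4-linked genes, 16 were higher in cadmium (53.3%) and 11 lower (36.7%), against 27.3% and 25.0% of all genes tested. The median log2 fold change of the list was 0.20. ATF3, a repressor induced by many stresses, stood at 1799, 1814 and 1821 CPM in Cd, against 591, 627 and 499.7 CPM in Zn, with 40.9, 39.9 and 41.5 CPM in water (log2 fold change 1.66 ± 0.04, adjusted p = 3.47e-28). GDF15, a secreted stress cytokine, stood at 11.7, 10.1 and 9.04 CPM in Cd, against 2.17, 1.81 and 2.11 CPM in Zn, and the pseudokinase gene TRIB3 at 326, 318 and 341 CPM in Cd, against 157, 137 and 129 CPM in Zn. Other targets went the opposite way: ATF5, a related transcription factor, stood at 17.1, 16.6 and 17.02 CPM in Cd, against 56.9, 57.5 and 56.2 CPM in Zn, with 74.3, 68.1 and 66.1 CPM in water, and ASNS, asparagine synthetase, at 17.9, 19.7 and 18.5 CPM in Cd, against 34.1, 31.6 and 27.4 CPM in Zn. DDIT3, the gene of CHOP, was lower (log2 fold change -0.27). CHAC1, which breaks down glutathione, stood at 49.7, 50.8 and 49.5 CPM in Cd, against 50.2, 44.7 and 53.8 CPM in Zn, with 1.57, 1.45 and 2.04 CPM in water, and did not pass (log2 fold change 0.01 ± 0.05, adjusted p = 0.887).

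Of 23 genes of the unfolded protein response, 16 were lower in cadmium (69.6%) and 4 higher (17.4%), with a median log2 fold change of -0.21. The shares of all genes tested were 25.0% lower and 27.3% higher. The list summed to 7067 to 7167 CPM in Cd, 7552 to 8314 CPM in Zn and 6643 to 6893 CPM in water libraries. DNAJB9, a cochaperone in the endoplasmic reticulum, stood at 26.4, 28.6 and 27.9 CPM in Cd, against 59.3, 58.5 and 40.9 CPM in Zn. EDEM1, which sends misfolded glycoproteins to degradation, stood at 65.0, 67.1 and 68.3 CPM in Cd, against 112, 105 and 109 CPM in Zn. Their water means were 9.55 and 62.7 CPM. Not every member stood above water in Cd: HYOU1 had means of 181 CPM in Cd, 264 CPM in Zn and 245 CPM in water. HSPA5, the main chaperone of that compartment, had a log2 fold change of -0.16 (adjusted p = 0.0173), but the third Zn library was below all Cd libraries (934, 985 and 972 CPM in Cd, against 1158, 1199.8 and 866 CPM in Zn). Without that library the log2 fold change was -0.29, and the call was lost with DESeq2, in a fit of the contrasted libraries only, and without the first Cd, the first Zn or the second Zn library. XBP1, a transcription factor of this response, was higher (log2 fold change 0.17). MANF was higher (log2 fold change 0.15), which was 0.09 without the third Zn library and then did not pass. Its call was also lost with library size alone as the scaling, under which 1 gene of the list was higher. In autophagy and the lysosome, 12 of 20 were lower (60.0%) and 6 higher (30.0%), with a median of -0.21: ULK1, the kinase that starts autophagy, stood at 53.2, 53.3 and 45.4 CPM in Cd, against 146, 151 and 125 CPM in Zn, with 58.7, 60.5 and 51.6 CPM in water (log2 fold change -1.48 ± 0.07, adjusted p = 6.48e-20). VPS18 was lower (log2 fold change -0.78), and the autophagosome gene MAP1LC3B was higher (log2 fold change 0.45). In the cholesterol synthesis list, 9 of 23 were lower (39.1%) and 6 higher (26.1%), with HMGCS1 lower (log2 fold change -0.73) and IDI1 and SC5D higher (log2 fold changes 0.63 and 0.54).

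The best-known targets of YAP and TAZ, ANKRD1, CCN1 and CCN2, were higher under cadmium. ANKRD1 stood at 1826, 1791 and 1833 CPM in Cd, against 524, 534 and 235 CPM in Zn, with 47.3, 42.1 and 50.8 CPM in water. Its log2 fold change was 2.08 ± 0.13 (adjusted p = 9.36e-17) and 1.78 without the third Zn library, which was the lowest of the Zn group. CCN1, a matricellular protein gene, stood at 536, 539 and 487 CPM in Cd, against 139, 166 and 98.3 CPM in Zn, with 131, 122 and 131 CPM in water, so Zn libraries lay on both sides of the water level. CCN2 stood at 308, 289 and 246 CPM in Cd, against 111, 119 and 85.3 CPM in Zn, with 196, 175 and 177 CPM in water, so water lay between the metals. Of 22 tested targets, 11 were higher (50.0%) and 4 lower (18.2%), against 27.3% and 25.0% of all genes tested. The median log2 fold change of the targets was 0.18, and F3, tissue factor, was lower (log2 fold change -0.95). LATS2, a kinase gene and itself a YAP target, was lower (log2 fold change -0.19), at 41.9, 39.0 and 44.7 CPM in Cd, against 50.2, 44.3 and 49.0 CPM in Zn, with 16.4, 16.5 and 16.2 CPM in water. Of 19 Hippo pathway components 6 were higher (31.6%) and 2 lower (10.5%), or 5 and 5 when scaled by library size only, with TEAD4 higher (log2 fold change 0.51), AMOT higher (log2 fold change 0.30), LATS1 higher (log2 fold change 0.24) and TEAD3 lower (log2 fold change -0.76). Of 18 SRF targets of the actin cytoskeleton, 12 were higher (66.7%) and 2 lower (11.1%), with a median of 0.27. TAGLN, transgelin, stood at 12.3, 10.8 and 12.02 CPM in Cd, against 3.25, 2.83 and 3.22 CPM in Zn, and FILIP1L at 41.2, 44.4 and 44.4 CPM in Cd, against 24.1, 23.9 and 15.2 CPM in Zn. FLNA, filamin A, and TPM2, a tropomyosin, were lower (log2 fold changes -0.33 and -0.81).

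Immediate early genes, which growth factors and stress switch on within minutes, split by family member. FOSB stood at 351, 324 and 351 CPM in Cd, against 51.8, 53.3 and 70.9 CPM in Zn, with 1.61, 1.39 and 1.11 CPM in water (log2 fold change 2.54 ± 0.06, adjusted p = 7.49e-29). Its paralog FOS stood at 123, 113 and 116 CPM in Cd, against 145, 141 and 141 CPM in Zn, with 1.19, 1.22 and 1.19 CPM in water, and was lower in cadmium (log2 fold change -0.28). JUN, the partner of both, was higher, at 1038, 992 and 1018 CPM in Cd, against 383, 405 and 419 CPM in Zn. MAFF was lower (log2 fold change -0.42). Of 10 AP-1 genes 3 were higher (30.0%) and 3 lower, near the 27.3% and 25.0% of all genes tested. EGR1 and its paralog EGR2 were lower (log2 fold changes -0.29 and -1.55). EGR2 stood at 6.51, 6.66 and 6.62 CPM in Cd, against 20.8, 18.6 and 18.5 CPM in Zn, with 0.652, 0.726 and 0.567 CPM in water. The orphan nuclear receptor gene NR4A1 was higher, at 141, 129 and 142 CPM in Cd, against 53.5, 46.6 and 42.1 CPM in Zn, as was IER3, an early survival gene, with 31.4, 33.3 and 30.8 CPM in Cd, against 7.83, 7.14 and 8.43 CPM in Zn. KLF5, a Krüppel-like factor, stood at 18.2, 18.6 and 16.6 CPM in Cd, against 56.8, 59.4 and 47.6 CPM in Zn, with 18.7, 18.98 and 18.3 CPM in water, so its Cd libraries were at the water level. Of 27 EGR, IER, NR4A and KLF genes 13 were higher and 13 lower (48.1% each). Of 18 feedback genes of MAP kinase signalling, 10 were higher (55.6%) and 7 lower (38.9%). DUSP1, which dephosphorylates MAP kinases in the nucleus, stood at 1438, 1390.5 and 1279.8 CPM in Cd, against 281, 282 and 170.1 CPM in Zn, with 55.8, 54.2 and 58.5 CPM in water (log2 fold change 2.49 ± 0.09, and 2.28 without the third Zn library). SPRED3 was higher (log2 fold change 1.48), while DUSP5, the ERK-specific member, and ETV5, an ERK-driven ETS factor, were lower (log2 fold changes -1.06 and -0.89). HBEGF, a ligand of the EGF receptor, stood at 127, 127 and 121 CPM in Cd, against 90.2, 89.4 and 57.3 CPM in Zn, and was higher (log2 fold change 0.67). It was the 1 higher of 5 EGF family ligands (20%), and 2 were lower (40.0%).

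The list with the highest median was that of BMP signalling. Of 11 tested BMP ligands, ID genes and inhibitory SMADs, 8 were higher in cadmium (72.7%) and 1 lower (9.09%), with a median log2 fold change of 0.67. The shares of all genes tested were 27.3% higher and 25.0% lower. ID3, an inhibitor of helix-loop-helix factors and a direct BMP target, stood at 195, 173 and 175 CPM in Cd, against 27.6, 32.5 and 19.7 CPM in Zn, with 70.3, 66.1 and 70.9 CPM in water, so the 2 metals lay on opposite sides of water. ID3 had a log2 fold change of 2.77 ± 0.08 (adjusted p = 3.21e-27). SMAD7, which blocks TGF-β and BMP receptors, stood at 202, 196 and 189 CPM in Cd, against 30.2, 32.2 and 29.6 CPM in Zn, with 33.6, 33.1 and 33.1 CPM in water, so the Zn libraries lay near water (log2 fold change 2.67 ± 0.04, adjusted p = 5.91e-35). SMAD6, ID4 and ID1, singled out after their values were seen, were higher (log2 fold changes 1.87, 1.32 and 1.14), and the Cd mean, the Zn mean and the water mean of SMAD6 were 57.2, 15.6 and 36.2 CPM. The ligand gene BMP4 was lower (log2 fold change -0.23), a call lost without the third Cd, the first Zn or the second Zn library.

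Of the Notch genes more were lower than higher in cadmium. Of 14 Notch receptors, ligands and HES and HEY genes, 8 were lower in cadmium (57.1%) and 3 higher (21.4%), with a median of -0.29. The shares of all genes tested were 25.0% lower and 27.3% higher. JAG1, a Notch ligand, stood at 31.5, 29.7 and 25.2 CPM in Cd, against 73.7, 72.6 and 64.8 CPM in Zn, with 49.6, 48.8 and 45.5 CPM in water (log2 fold change -1.29 ± 0.05), and NOTCH3 was lower (log2 fold change -0.81). The target genes HES1 and HEY1 were higher (log2 fold changes 1.15 and 0.87). HES1 stood at 25.1, 21.3 and 19.5 CPM in Cd, against 9.66, 11.2 and 8.85 CPM in Zn, with 32.3, 31.8 and 32.4 CPM in water. Of 13 SOX genes 4 were higher (30.8%) and 5 lower (38.5%). SOX2 stood at 3.88, 3.998 and 4.50 CPM in Cd, against 12.7, 13.4 and 13.3 CPM in Zn, with 23.9, 26.8 and 25.04 CPM in water (log2 fold change -1.66 ± 0.09, adjusted p = 2.27e-18). SOX4 was lower (log2 fold change -0.25) and SOX12 higher (log2 fold change 0.47).

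Of 27 ribosome biogenesis genes, 23 were higher (85.2%) and 1 lower (3.70%), against 27.3% and 25.0% of all genes tested. The median log2 fold change of the list was 0.42. RRS1, an assembly factor of the large subunit, stood at 47.0, 46.0 and 47.9 CPM in Cd, against 16.03, 16.01 and 17.9 CPM in Zn, with 57.3, 59.0 and 64.1 CPM in water, so the Zn libraries lay farthest below water. NIFK, which binds the proliferation marker Ki-67, stood at 96.7, 97.1 and 93.9 CPM in Cd, against 41.5, 40.4 and 43.1 CPM in Zn, with 59.8, 55.3 and 61.6 CPM in water, and BOP1 was the 1 lower member (log2 fold change -0.15, and -0.10 without the third Zn library). With library size alone as the scaling, 3 of the list were lower and 21 higher. MYC, a driver of this programme, stood at 13.4, 14.8 and 12.5 CPM in Cd, against 4.68, 4.30 and 3.81 CPM in Zn, with 64.2, 70.1 and 65.3 CPM in water (log2 fold change 1.67 ± 0.09, adjusted p = 1.31e-18), so both metals were far below water. Of 12 genes of the MYC and MAX network 4 were higher (33.3%) and 5 lower (41.7%), with MAX higher (log2 fold change 0.53) and the MYC antagonists MXD1 and MXD4 lower (log2 fold changes -0.47 and -0.58). Of 17 CLK kinases and SR splicing factors, 11 were higher (64.7%) and 3 lower (17.6%), with a median of 0.51. CLK1, a kinase that phosphorylates SR proteins, stood at 206, 209 and 223 CPM in Cd, against 77.5, 71.4 and 72.3 CPM in Zn, with 53.2, 56.7 and 52.8 CPM in water (log2 fold change 1.53 ± 0.04, adjusted p = 3.28e-29), and CLK4 was higher (log2 fold change 1.17). CLK2 was lower (log2 fold change -0.45); CLK3 was lower (log2 fold change -0.17), with 32.9% of its reads on the opposite strand. The SR factors SRSF7 and TRA2B, singled out after their values were seen, were higher (log2 fold changes 0.97 and 0.83).

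**Figure D3:**
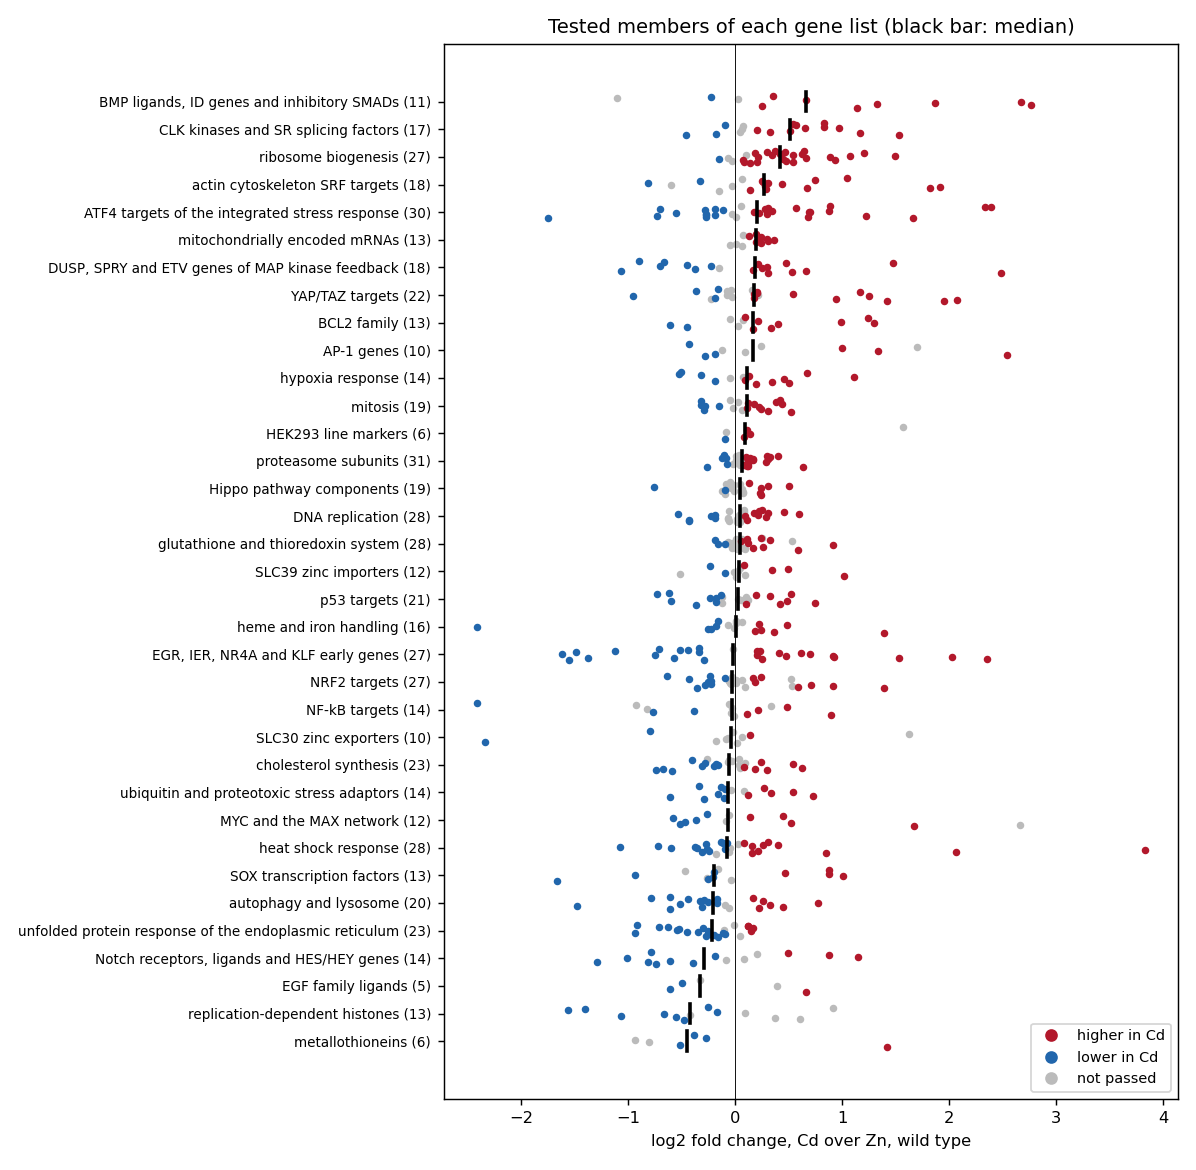
Log2 fold change of Cd over Zn (x axis) for every tested member of 35 gene lists, ordered by their median (black bar); the number tested is in brackets, and points are coloured by whether the gene passed adjusted p 0.05 and in which direction. BMP signalling, CLK and SR factors and ribosome biogenesis lie at the top with medians of 0.67, 0.51 and 0.42, and replication-dependent histones and metallothioneins lie at the bottom.

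Among replication-dependent histones 8 of 13 tested were lower (61.5%), against 25.0% of all genes tested, and 5 did not pass. The median log2 fold change of the list was -0.42. Its tested members summed to 84.2 to 89.5 CPM in Cd and 120.5 to 128.0 CPM in Zn libraries. Water libraries held 36.4 to 42.9 CPM, so both metals stood above water. H2BC21 stood at 6.26, 6.90 and 6.06 CPM in Cd, against 19.3, 16.9 and 20.2 CPM in Zn, and H2AC11 at 6.04, 6.12 and 6.93 CPM in Cd, against 14.1, 13.999 and 11.8 CPM in Zn. These transcripts mostly lack a poly(A) tail and have near copies, so poly(A) libraries count them poorly. All genes of the mitochondrial chromosome made up 5.56% to 5.69% of counts in Cd, 5.12% to 5.33% in Zn and 4.75% to 4.90% in water. The 13 mRNAs encoded there summed to 47044 to 48611 CPM in Cd, 40567 to 42257 CPM in Zn and 37284 to 38245 CPM in water. Of these 13 mRNAs, 9 were higher (69.2%) and 4 did not pass, against 27.3% higher of all genes tested. MT-ND6 lies on the opposite strand to the other 12: 72.3% of its reads lay on the other strand, and its log2 fold change of 0.37 became 0.06 (adjusted p = 0.346) on its own strand. Its neighbour MT-ND5 was higher (log2 fold change 0.31).

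Of 28 DNA replication genes 10 were higher (35.7%) and 6 lower (21.4%), against 27.3% and 25.0% of all genes tested, or 8 and 10 when scaled by library size only, with POLE2 and FEN1 higher (log2 fold changes 0.60 and 0.46) and POLD1 and the helicase subunit MCM7 lower (log2 fold changes -0.53 and -0.43). Of 19 mitosis genes 10 were higher (52.6%) and 5 lower (26.3%), with PLK1 and KIF11 higher (log2 fold changes 0.52 and 0.44) and CENPF lower (log2 fold change -0.32). Among 21 p53 targets 7 were higher (33.3%) and 8 lower (38.1%): PMAIP1, the gene of the death factor NOXA, stood at 410.0, 436 and 449.8 CPM in Cd, against 257, 260.5 and 253 CPM in Zn, the growth arrest gene GADD45A at 99.9, 102 and 104 CPM in Cd, against 51.2, 50.4 and 34.5 CPM in Zn, and the cell cycle inhibitor CDKN1A was lower (log2 fold change -0.37). In the BCL2 family 8 of 13 were higher (61.5%) and 2 lower (15.4%). HRK, a death-promoting member, stood at 87.5, 83.3 and 83.5 CPM in Cd, against 39.3, 36.7 and 27.5 CPM in Zn, while BCL2L11, the gene of BIM, was lower (log2 fold change -0.61). Of 14 NF-kB targets 4 were higher (28.6%) and 3 lower (21.4%), or 1 and 4 when scaled by library size only, with NFKBIE higher (log2 fold change 0.90) and RELB lower (log2 fold change -0.77), and of 14 hypoxia genes 8 were higher (57.1%) and 4 lower (28.6%), with ADM and HK2 higher (log2 fold changes 0.50 and 0.46) and P4HA1 and ENO2 lower (log2 fold changes -0.52 and -0.50).

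The genes most different between the metals, at a mean of at least 5 CPM and with no overlap between groups, included many outside these lists. ARHGAP30, annotated on the minus strand of chromosome 1 (chr1:161046946-161069970, GENCODE 29 on GRCh38), headed the higher side with 9.02, 9.70 and 11.1 CPM in Cd, against 1.02, 1.20 and 0.781 CPM in Zn. However, 97.5% of its reads lay on the opposite strand: 911 counts in Cd and 82 in Zn libraries were on that strand, against 18 in Cd and 7 in Zn on the strand of the gene. These reads cannot be assigned to ARHGAP30 itself, and the gene could not be tested on its own strand. RAB39B and RAB39A, paralogous small GTPases of vesicle traffic, were both higher: RAB39B stood at 12.97, 13.4 and 11.9 CPM in Cd, against 2.13, 2.01 and 1.89 CPM in Zn, and RAB39A at 19.4, 20.4 and 21.3 CPM in Cd, against 5.15, 5.26 and 3.81 CPM in Zn. EMILIN2, an extracellular matrix glycoprotein gene, stood at 50.6, 52.5 and 44.3 CPM in Cd, against 11.01, 11.1 and 8.30 CPM in Zn, with 16.7, 16.6 and 18.1 CPM in water. ZFP37, a zinc finger gene, stood at 24.5, 28.0 and 24.6 CPM in Cd, against 5.59, 5.53 and 5.08 CPM in Zn, with 11.01, 10.99 and 9.87 CPM in water, and TEX19, a germ cell gene, at 9.52, 9.94 and 8.76 CPM in Cd, against 2.58, 2.49 and 1.46 CPM in Zn. The metals lay on opposite sides of water for both EMILIN2 and ZFP37.

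The lowest was ELAPOR1, a membrane protein of endosomes and lysosomes (chr1:109113679-109206781), at 0.720, 0.581 and 1.21 CPM in Cd, against 12.2, 10.6 and 12.7 CPM in Zn, with 0.115, 0.165 and 0.142 CPM in water. The log2 fold change was -3.80 ± 0.14 (adjusted p = 4.50e-23), on 79 counts in Cd and 1062 in Zn libraries. SPACA6, known for sperm and egg fusion, stood at 2.10, 1.71 and 1.74 CPM in Cd, against 12.3, 10.004 and 10.3 CPM in Zn, with 7.18, 6.64 and 5.84 CPM in water. CREBRF, a negative regulator of the factor CREB3, stood at 17.9, 18.4 and 17.99 CPM in Cd, against 56.7, 54.8 and 65.6 CPM in Zn, with 7.37, 8.65 and 8.88 CPM in water. CFP, the complement factor properdin, stood at 2.57, 2.36 and 2.49 CPM in Cd, against 8.06, 7.79 and 9.08 CPM in Zn, and the neuronal helix-loop-helix gene NHLH1 at 3.01, 2.26 and 3.51 CPM in Cd, against 9.93, 8.13 and 12.4 CPM in Zn; both were below 1 CPM in water. MIR34AHG, the host RNA of the p53-responsive miR-34a, stood at 2.44, 2.60 and 2.49 CPM in Cd, against 8.50, 8.02 and 8.04 CPM in Zn, with 23.2, 23.8 and 20.2 CPM in water, and 16.3% of its reads lay on the opposite strand. ATF5, described above, had 14.2% there, and both kept their direction on their own strand (log2 fold change -1.82 and -1.74).

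**Figure D4:**
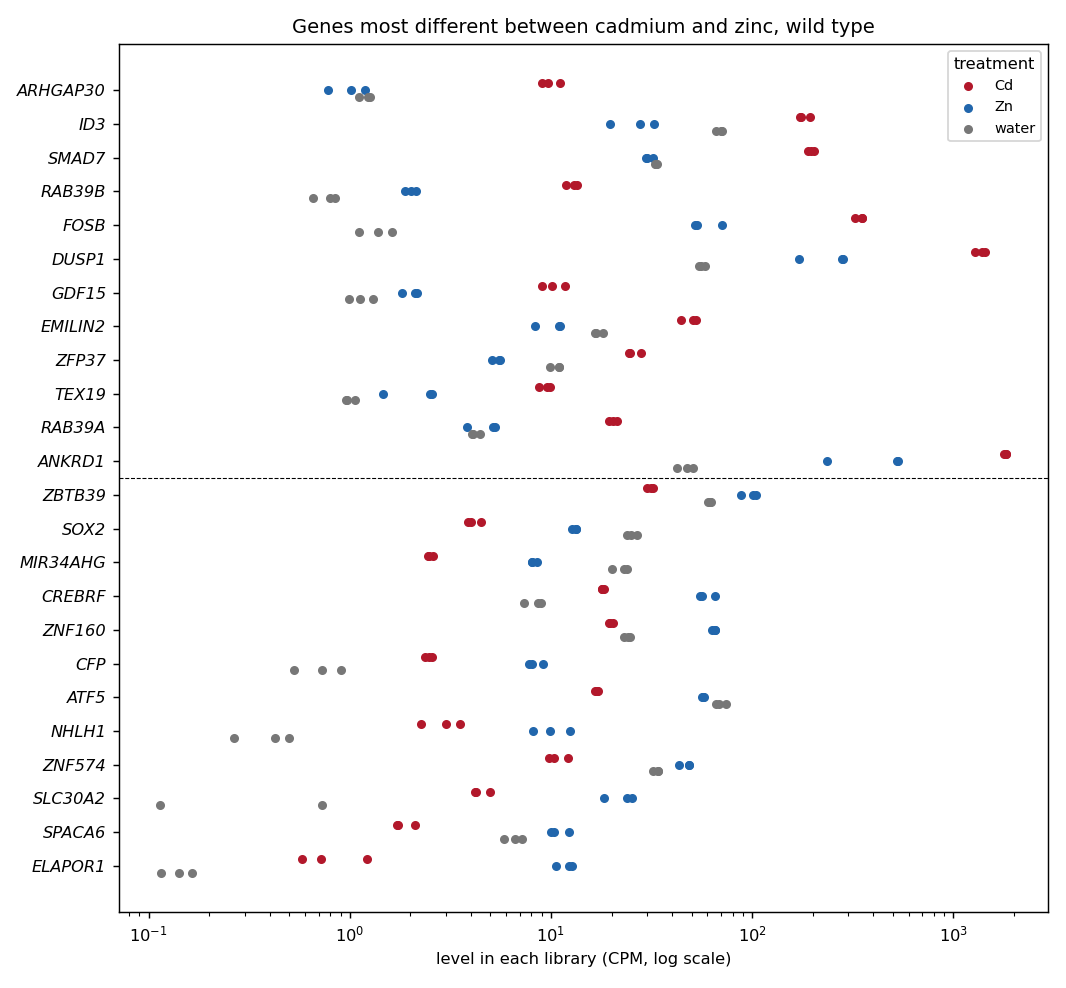
Level in each wild-type library (x axis, CPM, log scale; 3 points per treatment) of the 12 genes highest (above the dashed line) and the 12 lowest (below it) in log2 fold change of Cd over Zn; 1 water library of SLC30A2 at 0 is not drawn. Cd and Zn points do not overlap for any of these 24 genes, by the rule that chose them, and water lies outside both metals for some and between them for others.

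Zinc finger genes made up 3 of the 12 lowest: ZNF574 stood at 12.2, 10.4 and 9.72 CPM in Cd, against 43.4, 48.3 and 48.5 CPM in Zn, with 32.2, 34.0 and 33.9 CPM in water. ZNF160 stood at 20.3, 19.6 and 19.4 CPM in Cd, against 65.3, 65.4 and 63.2 CPM in Zn, with 24.2, 23.01 and 24.6 CPM in water, and ZBTB39 at 31.5, 32.3 and 30.1 CPM in Cd, against 101, 105 and 87.7 CPM in Zn, with 62.3, 61.6 and 60.4 CPM in water. All genes whose symbol is ZNF followed only by digits were therefore counted, a list chosen after these values were seen and so a description only. Of 447 tested, 126 were higher (28.2%) and 210 lower (47.0%), against 27.3% and 25.0% of all genes tested. The median log2 fold change of the list was -0.11, and the 228 on chromosome 19 had 71 higher and 100 lower. The protein-coding genes that differed at least 2-fold at 5 CPM or more were compact: their median span was 13.97 kb for the 168 higher in cadmium and 23.1 kb for the 101 lower, against 36.7 kb for all 10608 such genes, and 20.2%, 15.8% and 4.47% had at most 2 exon blocks.

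The same contrast was measured in the libraries labelled LATS1/2 double knockout, which share no library with the wild-type contrast. In wild type LATS1 stood at 92.5, 96.0 and 97.3 CPM in Cd, 79.4, 78.2 and 84.5 CPM in Zn and 78.3, 82.0 and 77.3 CPM in water. In the libraries labelled knockout it stood at 51.0, 54.1 and 54.5 CPM in Cd, 50.4, 48.4 and 48.5 CPM in Zn and 46.1, 44.0 and 45.6 CPM in water. LATS2, given above for wild type, stood there at 25.7, 23.8 and 25.5 CPM in Cd, 38.2, 36.0 and 40.4 CPM in Zn and 18.2, 18.9 and 18.7 CPM in water, so it was higher than in wild type without metal and lower with either metal. Reads over a whole gene do not show a small deletion, so these levels do not check the label. In the knockout 9348 genes passed (48.2%), 4645 higher (24.0%) and 4703 lower (24.3%) in cadmium. The difference of the contrast between genotypes passed for 4571 genes (23.6%), with 2701 more positive in wild type (13.9%) and 1870 more negative (9.64%). Across the 11132 genes of at least 5 CPM the log2 fold changes of the 2 genotypes correlated with r = 0.746, across genes, which are not independent.

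Of the 188 genes at least 2-fold higher in wild type, 169 passed in the same direction in the knockout, 3 in the opposite one and 16 did not pass, and their median log2 fold change was 1.23 in wild type and 0.73 in the knockout. Of the 120 lower, 111 passed in the same direction, 2 in the opposite one and 7 did not, with medians of -1.22 and -0.95. These genes were picked by their wild-type values, so the 2 medians are a description and no comparison of the genotypes. HMOX1 had a log2 fold change of 1.39 in wild type and 1.53 in the knockout, and the difference did not pass (-0.13 ± 0.12, adjusted p = 0.465). HSPA6 stood at 2168, 2016 and 2035 CPM in Cd, against 1439, 1333 and 1212 CPM in Zn in the knockout, so both levels were above those of wild type and the log2 fold change was 0.64. ANKRD1 stood at 4053, 3962 and 4073 CPM in Cd, against 2612, 2466 and 2404 CPM in Zn and 454, 427 and 412 CPM in water in the knockout, with a log2 fold change of 0.69. SLC30A2 was lower in cadmium in both genotypes, at 58.1, 54.8 and 55.2 CPM in Cd, against 168, 170.1 and 164 CPM in Zn in the knockout. MT1X had a log2 fold change of -0.27 in wild type and 0.12 in the knockout (adjusted p = 0.007), and the difference was -0.39 ± 0.05 (adjusted p = 5.44e-07).

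**Figure D5:**
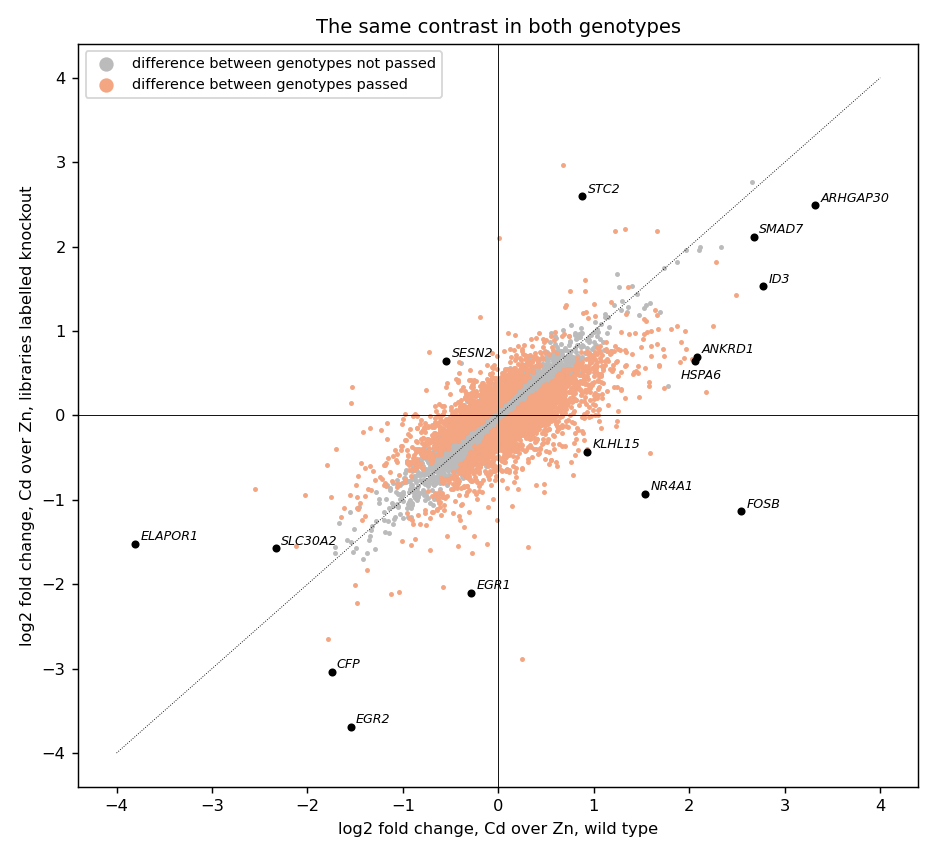
Log2 fold change of Cd over Zn in wild type (x axis) and in the libraries labelled knockout (y axis) for the 11132 genes of at least 5 CPM; the dotted line marks equal values and orange points passed the test of the difference between genotypes and named genes are black. SMAD7, ID3 and SLC30A2 lie in the same quadrant in both, FOSB and NR4A1 lie above 0 in wild type and below 0 in the knockout, and STC2 lies above the line.

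FOSB, NR4A1, KLHL15, STC2, SESN2 and EGR1 had the smallest p of the difference between genotypes among the genes of at least 5 CPM that passed in wild type. FOSB, higher in cadmium in wild type, was lower in the knockout, at 13.1, 12.2 and 13.5 CPM in Cd, against 25.6, 30.4 and 29.5 CPM in Zn (log2 fold change -1.14 ± 0.09); the difference between genotypes was 3.68 ± 0.11 (adjusted p = 3.40e-25). NR4A1 also turned direction, with 81.0, 73.8 and 71.9 CPM in Cd, against 145, 148 and 139 CPM in Zn in the knockout. EGR1 was lower in cadmium in both, but by far more in the knockout, at 93.1, 78.2 and 84.5 CPM in Cd, against 332, 402 and 370.1 CPM in Zn (log2 fold change -2.10). KLHL15, a substrate adaptor of a CUL3 ubiquitin ligase, stood in wild type at 807, 879.7 and 853 CPM in Cd, against 449, 459 and 422 CPM in Zn, and in the knockout at 338, 352 and 364 CPM in Cd, against 465, 469.5 and 491 CPM in Zn. STC2, a secreted stress glycoprotein gene, stood in wild type at 174, 172 and 178 CPM in Cd, against 97.5, 92.8 and 94.4 CPM in Zn, and in the knockout at 106, 108 and 110.1 CPM in Cd, against 18.6, 18.2 and 16.8 CPM in Zn. SESN2, an inhibitor of mTORC1 signalling, was lower in cadmium in wild type (log2 fold change -0.55) and higher in the knockout (0.64). CHAC1, which did not pass in wild type, was higher in cadmium in the knockout (log2 fold change 2.11). Of the 30 ATF4-linked genes 24 were higher in the knockout and 5 lower, and the difference between genotypes passed for 23, in either direction. Of the 27 EGR, IER, NR4A and KLF genes 4 were higher in the knockout and 19 lower, and the difference passed for 20, in either direction. For both lists, the shares of all genes tested were 24.0% higher and 24.3% lower in the knockout, and 23.6% for the difference.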

How the data were processed

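RNA from HEK293A cells was sequenced as stranded mRNA libraries, per the labels' protocols. Reads were aligned with STAR to hg38 (GRCh38.p13), per the submitters' processing notes, and the counter is not given in the sources used here. The authors deposited raw read counts per Ensembl gene, 1 table per sample with 3 count columns (both strands together and each strand) and 1 table of the whole series. The column for both strands was used; 5.24% to 5.94% of reads lay on the minor strand, and 58216 of 58336 identifiers were found in GENCODE 29, whose coordinates are used.

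Counts were analysed with edgeR 4.0.16 in R 4.3.3: genes passed filterByExpr (minimum count 10), TMM scaling, and a quasi-likelihood fit over the 6 groups and 18 libraries, with p-values adjusted by Benjamini and Hochberg over 19393 genes. CPM values are TMM-normalized. On simulated data of the wild-type contrast (19393 genes), 78%, 90%, 98% and 100% of 50 genes each changed by 1.25, 1.5, 2 and 4-fold were recovered. Of the unchanged genes 7 were called. Only these few genes differed in the simulation, none of them at the lowest levels, while 52.3% passed in the data. It therefore does not probe the scaling or the genes with fewest counts. Alternatives used DESeq2 1.42.0, limma 3.58.1, other scalings and filters, the replicate number, single strands and each library left out. The genes named are the 12 highest and 12 lowest with no overlap and at least 5 CPM, a panel of 30 genes, the extremes of each list, and the 6 with the smallest p between genotypes. Members and lists were chosen with earlier results of these data known.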

Additional observations from a re-analysis of the deposited data

Results flagged for a closer look

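The contrast of cadmium with zinc differed between wild type and the libraries labelled knockout for 4571 genes (23.6%). The test was edgeR's quasi-likelihood test of the difference (adjusted p under 0.05). Among them are 22 of the genes named for their size or for this test. FOSB, NR4A1, KLHL15, STC2, SESN2 and EGR1 were chosen by their p in this test. The others were chosen by large wild-type fold changes, which enter the difference, so the count of 22 is no further evidence. Values below are the log2 fold change of Cd over Zn in wild type minus that in the knockout. The wild-type value was the more positive for FOSB by 3.68, NR4A1 by 2.46, EGR1 by 1.81, ANKRD1 by 1.38, KLHL15 by 1.37, CFP by 1.29, ID3 by 1.24, ZFP37 by 1.19, DUSP1 by 1.06, NHLH1 by 0.86, ARHGAP30 by 0.83, SMAD7 by 0.56 and EMILIN2 by 0.47. The difference was -2.28 for ELAPOR1, -1.71 for STC2, -1.68 for SPACA6, -1.31 for MIR34AHG, -1.19 for SESN2, -0.78 for ATF5, -0.76 for SLC30A2, -0.57 for ZNF574 and -0.44 for ZBTB39. Of these genes FOSB, NR4A1, KLHL15 and SESN2 passed in opposite directions in the 2 genotypes. For ARHGAP30, 97.5% of the reads lay on the opposite strand and cannot be assigned to the gene.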

How the results depend on the processing

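Of 158 named genes that passed, 145 kept their call and direction in all of the 15 alternatives that could test them, 13 lost the call in at least 1, and none reversed. The number of genes called between cadmium and zinc in wild type was 8029 to 10367 over the alternatives and 9388 to 9806 when 1 library was left out. Without the third Zn library 9806 genes were called, and 9217 of the 10147 were called in the same direction. Testing only genes of at least 5 CPM in 3 libraries left 221 genes at least 2-fold higher and 170 lower, since fewer genes were tested. Directions turned only for genes that had not passed. SLC30A1 (log2 fold change 0.024) was -0.032 with library size alone and -0.0054 with no filter, and -0.0039 to 0.058 when 1 library was left out. CHAC1 (0.011) was -0.045 with library size alone, -0.018 with no filter and -0.0044 with the 5 CPM filter, and -0.061 to 0.076 when 1 library was left out, with -0.0020 and -0.061 without the second Cd and the second Zn library. MT1H was -1.50 to 0.30 when 1 library was left out. The cause was not tested. Of the counts for single lists, 74 moved by more than 1.5 times and 1066 did not. With the replicate block 10320 genes were called. Same-numbered Cd and Zn libraries had correlations of 0.005, 0.045 and 0.086 in wild type, and 0.055, 0.016 and 0.041 in the knockout. Differently numbered ones had -0.067 to 0.022 in wild type and -0.040 to -0.00075 in the knockout. All were weak, and whether the numbers pair the samples was not tested. Each metal had 1 dose and 1 time, and levels under 5 CPM rest on few counts.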
